A study of Mus musculus with 8 samples.

Results

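The small leucine-rich proteoglycans are a family of secreted matrix proteins, and 8 of their genes were followed here: Bgn, Dcn and Aspn of class I, Lum, Fmod, Prelp and Omd of class II, and Ogn of class III. Each gene was read from the probe set that carries its symbol alone in the platform annotation, and all 8 were found among the 19938 genes so measured. Bgn and Aspn were the reason for the choice: Bgn for its level in K14Snail cells and Aspn for its level in the CD34 positive fraction. The K14Snail difference of Bgn and the CD34 difference of Aspn are therefore described below with no test.

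The study compared keratinocytes sorted from the back skin of 8 week old CD1 mice, K14Snail or wild type, on 1 array per group. In K14Snail mice the keratin 14 promoter, which is active in basal keratinocytes, drives the transcription factor Snail, a repressor of epithelial genes. The groups were K14Snail CD34 positive and CD34 negative cells, K14Snail Mts24 positive and Mts24 negative cells, and the same 4 fractions of wild type mice. CD34 marks cells of the hair follicle bulge at their surface, and Mts24 is an antibody that binds the Plet1 product of the upper follicle. Fractions were separated by magnetic selection. Each array held RNA of pooled mice of both sexes, 11 mice for a CD34 array and 9 for an Mts24 array, so the spread between animals was not measured.

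A small leucine-rich proteoglycan has a core of leucine-rich repeats that binds collagen fibrils and sets their thickness and spacing, and most members carry glycosaminoglycan chains. Several members also bind growth factors of the TGF-beta and BMP families, and soluble biglycan is a ligand of Toll-like receptors. In skin they are known chiefly as products of dermal fibroblasts.

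The labels were checked first. Snai1, the gene of Snail, lay between 10.84 and 11.04 (log2 level) in the 4 K14Snail arrays and between 7.86 and 8.16 in the 4 wild type arrays. Cd34 lay at 13.29 in the K14Snail and 13.57 in the wild type CD34 positive array, against 6.27 and 6.12 in the CD34 negative arrays. Plet1 was likewise higher in the Mts24 positive arrays, at 12.64 in K14Snail and 12.88 in wild type, than in the Mts24 negative ones, at 9.16 and 9.91. The filter level was 7.70, the median over all named genes and arrays, and genes below it in 7 or more arrays were not tested. All 10 keratinocyte markers reached this level in every array, and all 10 endothelial markers stayed under it in every array. Bgn reached it in 6 arrays, Aspn in 4, Fmod in 1 and the other 5 members in 0, so 2 of the 8 members passed and the levels of the other 6 lay mostly where background weighs on an array.

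The promoters of the 2 members that passed are shown because the zinc fingers of Snail bind E-boxes. Only the 250 bases before the annotated start of transcription were searched, and binding by Snail was not tested. RefSeq promoters (GRCm38.p6) were found for 6 of the 8 members, Bgn, Aspn, Fmod, Prelp, Omd and Ogn. Each of the following windows ends at the base before the annotated start of transcription, reads 5′ to 3′ on the plus strand, and has the E-box CANNTG in capitals. The Bgn window is chrX:73483351-73483600 and the Aspn window chr13:49544193-49544442.
Bgn: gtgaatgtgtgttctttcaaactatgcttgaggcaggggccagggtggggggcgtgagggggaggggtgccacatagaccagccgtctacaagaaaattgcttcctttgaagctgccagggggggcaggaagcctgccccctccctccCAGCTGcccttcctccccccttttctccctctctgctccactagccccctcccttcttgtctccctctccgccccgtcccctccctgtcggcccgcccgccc
Aspn: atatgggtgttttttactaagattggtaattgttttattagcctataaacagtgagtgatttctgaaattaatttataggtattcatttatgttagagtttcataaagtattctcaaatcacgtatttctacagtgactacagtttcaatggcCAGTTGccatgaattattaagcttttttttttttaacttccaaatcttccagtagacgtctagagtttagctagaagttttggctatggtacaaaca
The Bgn window held 64.4% G and C and the Aspn window 30%, on either side of the median of 52.4% over all promoter windows. Each held a single E-box, with CAGCTG beginning 102 bases before the start in Bgn and CAGTTG beginning 97 bases before it in Aspn. The form that Snail is best known to bind, CAGGTG, was searched on both strands and found in 0 of the 6 windows. It is 1 form of the wider motif, which reads alike on both strands. Of 32851 promoter windows of the same length, 17.2% held the Snail form and 66.2% held any E-box. The Fmod window held 1 E-box, that of Ogn 3, and those of Omd and Prelp 0.

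Bgn encodes biglycan, a class I member with chondroitin or dermatan sulfate chains. In K14Snail arrays its log2 level was 12.30 in CD34 positive, 8.94 in CD34 negative, 10.78 in Mts24 positive and 9.29 in Mts24 negative cells. In wild type arrays it was 9.51 in CD34 positive, 7.17 in CD34 negative, 7.96 in Mts24 positive and 7.03 in Mts24 negative cells. Each K14Snail array thus stood above the wild type array of the same fraction, and the wild type CD34 positive array was the only wild type array above a K14Snail one, so the genotypes overlapped.

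**Figure D1:**
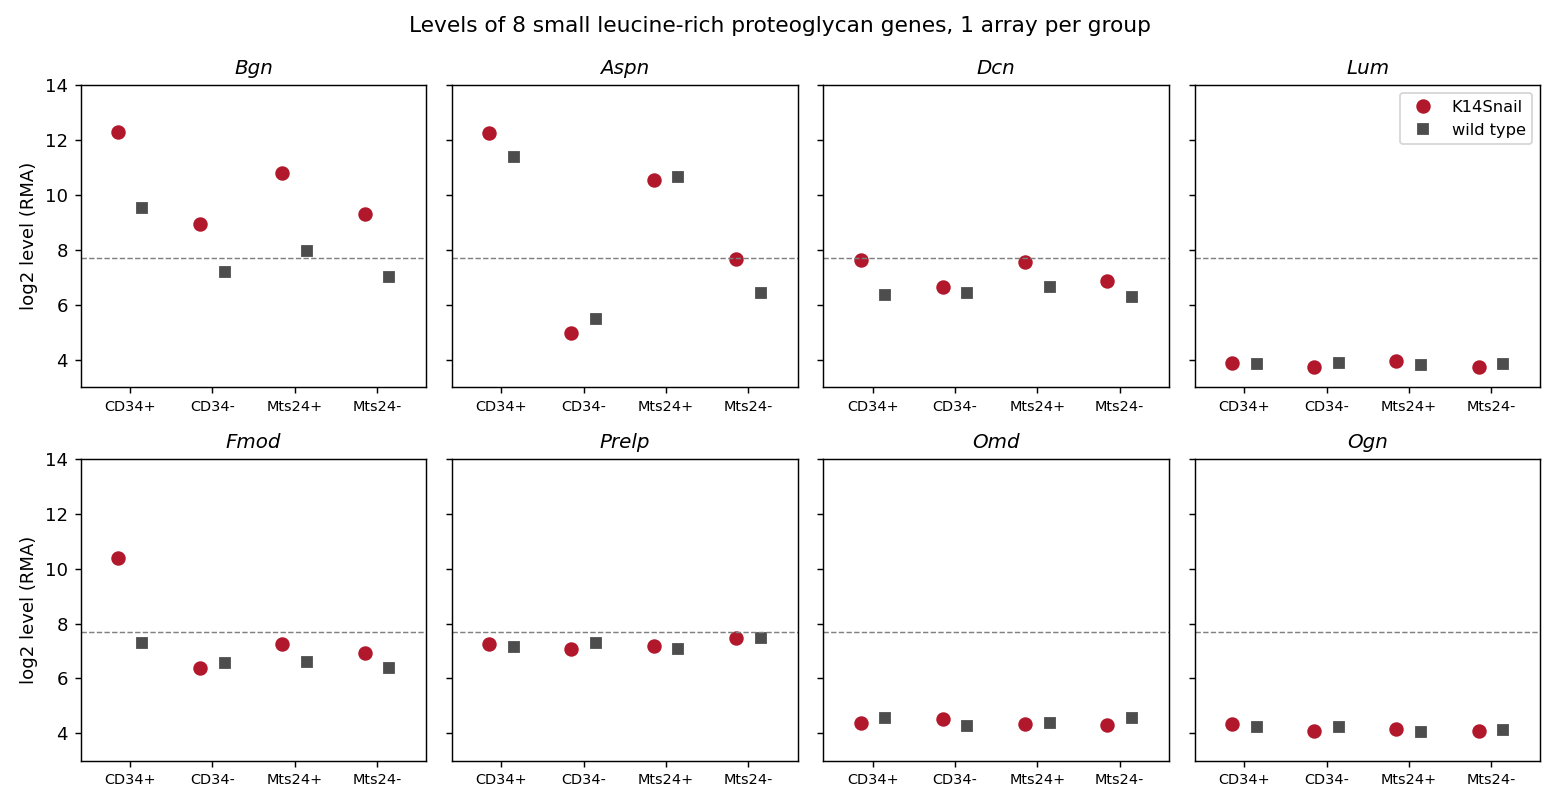
Log2 level (vertical axis) of each of the 8 genes in the 4 sorted fractions, with K14Snail as circles and wild type as squares, 1 array per point. The dashed line is the filter level of 7.70; Bgn is higher in K14Snail in every fraction, Aspn is high in the positive fractions of both genotypes, and the K14Snail CD34 positive array is the 1 array in which Fmod exceeds 7.70.

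The difference between K14Snail and wild type in Bgn was 2.79 (6.90-fold) in CD34 positive, 1.77 (3.41-fold) in CD34 negative, 2.82 (7.05-fold) in Mts24 positive and 2.26 (4.80-fold) in Mts24 negative cells. Bgn ranked 6th, 12th, 7th and 3rd from the highest of 19938 genes in these fractions. Over the 4 fractions the difference averaged 2.41 ± 0.16 (limma standard error, higher in 4 of 4 pairs), a value that helped to choose the gene. Among all tested genes, 2.05% passed the genotype test at an adjusted p under 0.05 (1.14% higher), and 12.3% of all genes were higher in K14Snail in 4 of 4 pairs. The wild type CD34 negative and Mts24 negative arrays held Bgn under 7.70, so the size of the difference in those fractions depends on the background.

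Bgn also followed the sort, in a comparison that did not enter the choice. It was higher in CD34 positive than in CD34 negative cells by 3.35 in K14Snail and by 2.34 in wild type, a mean of 2.84 ± 0.27 (7.18-fold, limma adjusted p = 0.00154). In this contrast 23.7% of the tested genes passed, 12.1% of them as higher, so a rise here was common. Each of the 8 fits that left out 1 array kept the call, with adjusted p between 0.00355 and 0.00778.

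The Mts24 difference of Bgn was smaller, at 1.49 in K14Snail and 0.93 in wild type, a mean of 1.21 ± 0.27 (2.32-fold, limma adjusted p = 0.0283; 22.8% of tested genes passed, 11.1% as higher). This call was the less firm: with the pool as a fixed block the adjusted p was 0.0504, and when 1 array was left out it ranged from 0.0205 to 0.143, with 4 of 8 fits past the threshold. The CD34 enrichment of Bgn exceeded its Mts24 enrichment by 1.63 ± 0.38, which did not pass (adjusted p = 0.0894; 4.08% of tested genes passed).

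By level the fractions ran from CD34 positive through Mts24 positive to the 2 negative fractions. CD34 positive exceeded Mts24 positive by 1.54 ± 0.25 (adjusted p = 0.0164), a difference of 1.52 in K14Snail and 1.55 in wild type. Mts24 positive exceeded CD34 negative by 1.31 ± 0.25 (adjusted p = 0.0271). The 2 negative fractions did not differ beyond their spread, at 0.10 ± 0.25 for Mts24 negative minus CD34 negative (adjusted p = 0.840). These order contrasts were chosen after the levels were seen, and in them 13.9%, 13.9% and 0.0653% of tested genes passed.

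The K14Snail difference of Bgn was larger in the positive than in the negative fractions by 0.79 ± 0.21, which did not pass the interaction test (adjusted p = 0.444). In that test limma called 0 of 10720 genes, with 845 (7.88%) at an unadjusted p under 0.05 and 4 called when the pool correlation was set at 0.1. Bgn lies on the X chromosome, and the pools were of mixed sex. Xist, the X inactivation transcript, lay between 11.72 and 12.33 in K14Snail and between 11.46 and 12.39 in wild type arrays, and its mean difference was 0.02 ± 0.08 (adjusted p = 0.858). Xist was lower in CD34 positive than in CD34 negative cells, by -0.77 ± 0.13 (adjusted p = 0.00993), opposite in sign to Bgn; the part of sex composition in the Bgn values was not tested.

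**Figure D2:**
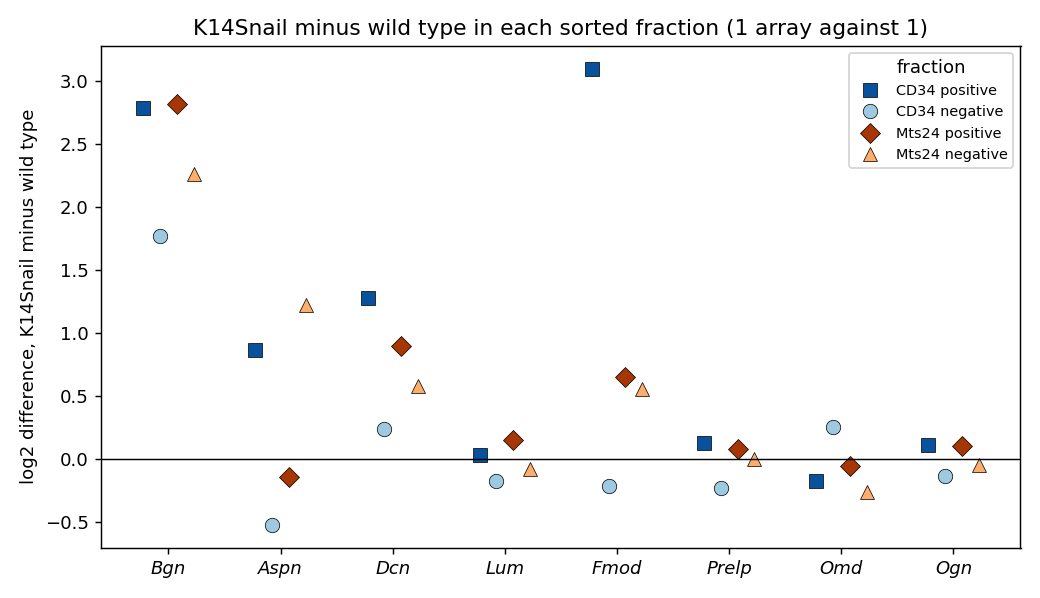
Log2 difference between the K14Snail and the wild type array (vertical axis) of each of the 8 genes, with 1 point per sorted fraction. Bgn lies between 1.77 and 2.82 in all 4 fractions, Dcn between 0.24 and 1.28, Fmod stands at 3.10 in CD34 positive cells, and Lum, Prelp, Omd and Ogn stay near 0.

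Dcn encodes decorin, a close relative of biglycan that binds collagen I and TGF-beta. Its log2 level in K14Snail arrays was 7.64 in CD34 positive, 6.66 in CD34 negative, 7.54 in Mts24 positive and 6.85 in Mts24 negative cells. In wild type arrays it was 6.37 in CD34 positive, 6.42 in CD34 negative, 6.64 in Mts24 positive and 6.27 in Mts24 negative cells. The lowest K14Snail array stood just above the highest wild type array, a separation seen in 1.2% of all 19938 genes, but all 8 arrays lay under 7.70.

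The difference between K14Snail and wild type in Dcn was 1.28 in CD34 positive, 0.24 in CD34 negative, 0.90 in Mts24 positive and 0.58 in Mts24 negative cells. When all genes were fitted with no filter, the mean of 0.75 ± 0.14 did not pass (limma adjusted p = 0.0772, higher in 4 of 4 pairs; 0.878% of genes passed in that fit). In the same fit neither the CD34 difference (0.46 ± 0.23, adjusted p = 0.287) nor the Mts24 difference (0.53 ± 0.23, adjusted p = 0.214) of Dcn passed. Within K14Snail the CD34 positive array was 0.98 above the CD34 negative one, and within wild type the difference was -0.06.

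Aspn encodes asporin, a class I member named for a run of aspartates, which binds collagen and TGF-beta and is thought to carry no glycosaminoglycan chain. In K14Snail arrays its log2 level was 12.23 in CD34 positive, 4.97 in CD34 negative, 10.52 in Mts24 positive and 7.66 in Mts24 negative cells. In wild type arrays it was 11.37 in CD34 positive, 5.49 in CD34 negative, 10.66 in Mts24 positive and 6.44 in Mts24 negative cells. All 4 positive arrays stood above all 4 negative ones, a separation seen in 8.17% of all genes, and all 4 negative arrays were under 7.70.

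The CD34 difference of Aspn was 7.26 in K14Snail, 1st of 19938 genes, and 5.87 in wild type, 2nd of 19938. Its mean was 6.57 ± 0.43, and this value helped to choose the gene. Because the CD34 negative arrays were so dim, the size of the difference depends on the background.

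The Mts24 sort gives a comparison that the choice did not use. Aspn was higher in Mts24 positive than in Mts24 negative cells by 2.86 in K14Snail and 4.23 in wild type, where it ranked 2nd of 19938 genes. The mean was 3.54 ± 0.43 (limma adjusted p = 0.00551; 0.00389 with no filter). Aspn reached 7.70 only in positive fractions, so it met the filter through the side where it is high, and with both Mts24 negative arrays under 7.70 the size of this difference too depends on the background. It passed in each of the 8 fits without 1 array (adjusted p between 0.00485 and 0.0441). Without either Mts24 pool the difference rests on 1 pair, so no call is read from those fits. Cd34 itself was higher in the Mts24 positive arrays, at 11.56 in K14Snail and 12.12 in wild type, than in the Mts24 negative ones, at 10.51 and 10.03. Of 11 bulge markers, 9 were higher and 0 lower in Mts24 positive cells, with a median of 1.42 against 0.02 over all tested genes, and the part of CD34-bearing cells in the Aspn value was not tested.

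By level Aspn ran from CD34 positive through Mts24 positive and Mts24 negative to CD34 negative in both genotypes. The gap between Mts24 negative and CD34 negative was 1.82 ± 0.40, with these arrays all under 7.70. CD34 positive exceeded Mts24 positive by 1.71 in K14Snail and by 0.70 in wild type. The mean of this step was 1.21 ± 0.40. Both steps use the CD34 arrays that helped to choose the gene and were picked after the levels were seen. They are given with no test, and the order is a description only. In bulk samples like these, fewer cells of a type and less RNA per cell cannot be told apart.

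Between genotypes Aspn did not keep 1 direction. The difference between K14Snail and wild type was 0.87 in CD34 positive, -0.52 in CD34 negative, -0.14 in Mts24 positive and 1.22 in Mts24 negative cells, higher in 2 of 4 pairs. The mean of 0.36 ± 0.26 did not pass (limma adjusted p = 0.412), nor did the interaction with the positive fraction, 0.01 ± 0.65 (adjusted p = 0.999).

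**Figure D3:**
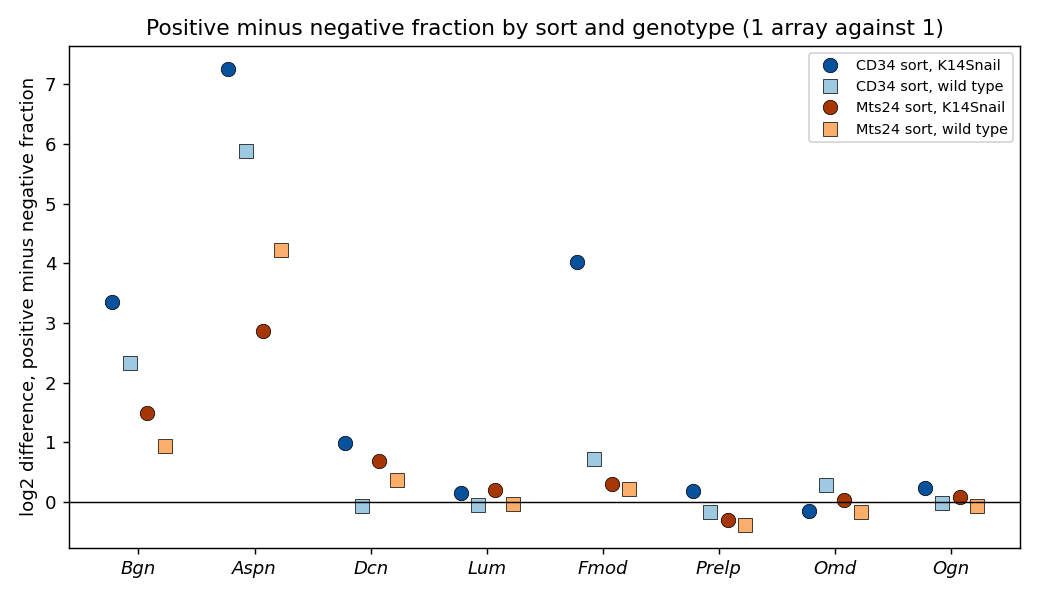
Log2 difference between the positive and the negative fraction (vertical axis) of each of the 8 genes, with 1 point per sort and genotype. Aspn lies highest in the CD34 sort of both genotypes (7.26 and 5.87), Bgn is above 0 in all 4 pairs, and Fmod stands at 4.02 in the K14Snail CD34 sort against 0.72 in wild type.

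Fmod encodes fibromodulin, a class II member with keratan sulfate chains that binds collagen I and guides its crosslinking. In K14Snail arrays its log2 level was 10.39 in CD34 positive, 6.37 in CD34 negative, 7.25 in Mts24 positive and 6.94 in Mts24 negative cells. In wild type arrays it was 7.30 in CD34 positive, 6.58 in CD34 negative, 6.60 in Mts24 positive and 6.38 in Mts24 negative cells. A single array, K14Snail CD34 positive, stood apart, and the genotypes overlapped with or without it.

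In CD34 positive cells Fmod was 3.10 higher in K14Snail than in wild type (8.55-fold), the 3rd highest of 19938 genes in that pair. The difference was -0.21 in CD34 negative, 0.65 in Mts24 positive and 0.56 in Mts24 negative cells. The CD34 difference was 4.02 in K14Snail, against 0.72 in wild type. With 1 array a group the K14Snail value has no replicate check, and a gene that reaches 7.70 in 1 array is not tested under the filter. In the fit with no filter the genotype difference (1.02 ± 0.44, limma adjusted p = 0.274), the CD34 difference (2.37 ± 0.70, adjusted p = 0.0781) and the interaction (1.70 ± 0.77, adjusted p = 0.797) of Fmod did not pass, where 0.878%, 13.3% and 0% of genes did.

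Of the 8 members, 3 were at least 1 log2 unit higher in K14Snail in CD34 positive cells (Bgn, Fmod and Dcn), where 1.87% of all genes were. In CD34 negative cells 1 member was (Bgn; 0.286% of all genes), in Mts24 positive cells 1 (Bgn; 0.963%) and in Mts24 negative cells 2 (Bgn and Aspn; 0.316%). No member was lower by that much in any fraction. Between sorted fractions, 3 members were at least 1 log2 unit higher in CD34 positive cells of K14Snail mice (Aspn, Fmod and Bgn; 3.49% of all genes) and 2 in those of wild type mice (Aspn and Bgn; 3.67%). In Mts24 positive cells 2 were in K14Snail (Aspn and Bgn; 3.1%) and 1 in wild type (Aspn; 2.58%). The genotype counts include the contrast that chose Bgn and the CD34 counts the one that chose Aspn, so nothing is read from them.

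The other 4 members stayed low and flat. Lum, which encodes the keratan sulfate proteoglycan lumican, lay between 3.72 and 3.95 in all 8 arrays. Omd (osteomodulin) lay between 4.28 and 4.56 and Ogn (osteoglycin, also called mimecan) between 4.06 and 4.33. Prelp, whose product binds heparan sulfate and collagen, lay between 7.08 and 7.47 and was thus nearer the filter level. Their K14Snail differences ranged from -0.26 (Omd, Mts24 negative) to 0.26 (Omd, CD34 negative), and with no filter their genotype adjusted p ran from 0.745 (Omd) to 0.986 (Prelp). The Mts24 difference of Prelp, -0.34 ± 0.12, was the largest of their marker differences and did not pass (adjusted p = 0.125; 12.2% of genes passed in that fit).

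Measured by the distance from the lowest to the highest array, Aspn ranked 2nd of 19938 genes with 7.26, Bgn 11th with 5.27 and Fmod 78th with 4.02, whereas the median gene spanned 0.47. Dcn spanned 1.38. Lum, Omd, Ogn and Prelp spanned 0.23, 0.29, 0.27 and 0.39, all below the median gene.

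Several members lie in clusters on their chromosomes, by the gene order of the RefSeq annotation, and nearby genes differed in how far their levels spread. On chromosome 13 Aspn is flanked by Ecm2, a matrix protein gene, and by Omd and Ogn. Aspn spanned 7.26 over the 8 arrays, against 0.42 for Ecm2, 0.29 for Omd and 0.27 for Ogn, and 0.38 for Nol8, the next gene beyond Ogn. On chromosome 10 Dcn and Lum are neighbours, with Kera, the keratocan gene, beyond Lum. Dcn spanned 1.38, Lum 0.23 and Kera 0.33.

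On chromosome 1 Prelp lies next to Optc (opticin), which spanned 0.23, and Fmod lies near Btg2, an antiproliferative gene that spanned 1.44. On the X chromosome Bgn is flanked by Haus7, which spanned 0.47, and Atp2b3, which spanned 0.31. Trex2, an exonuclease gene of differentiating keratinocytes on the far side of Haus7, spanned 3.38. Dim probe sets are compressed by background, so a narrow span of a dim gene does not show that its RNA was constant.

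**Figure D4:**
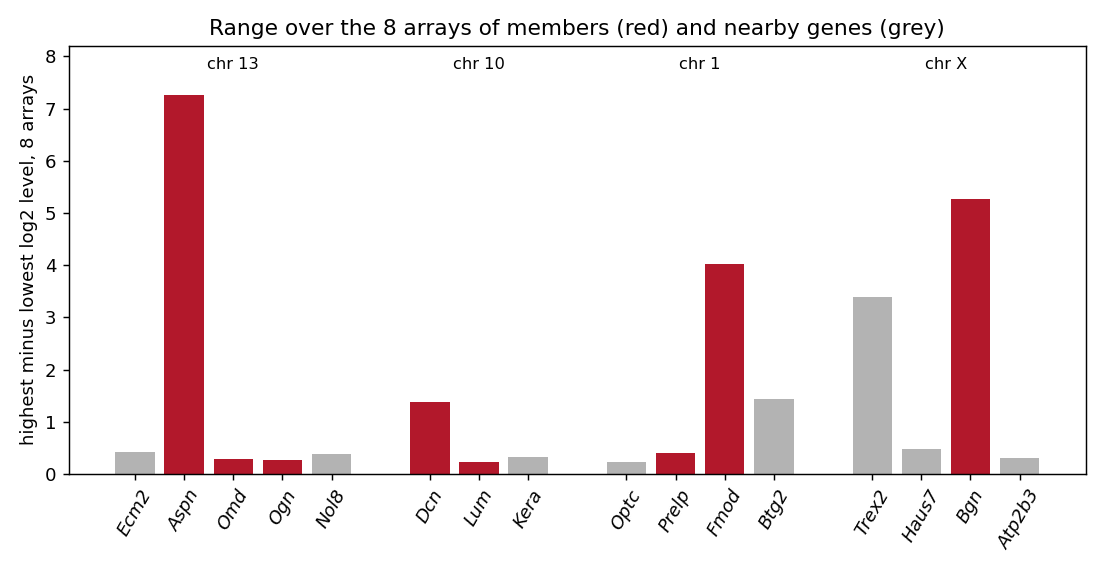
Distance from the lowest to the highest of the 8 arrays in log2 level (vertical axis) for members (red) and nearby genes (grey), grouped by chromosome in gene order. Aspn spans 7.26 beside Ecm2, Omd and Ogn at 0.42 or less, and Bgn spans 5.27 beside Haus7 and Atp2b3 at 0.47 and 0.31.

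Across the 8 arrays, which share pools and sorts and so are not independent, Bgn correlated at r = 0.88 with Dcn, 0.84 with Fmod and 0.68 with Aspn. Without the K14Snail CD34 positive array these were 0.78, 0.78 and 0.53. The tested genes most like Bgn were Spire1, an actin nucleator (r = 0.980), the actin-severing Gsn (0.965), the folate enzyme gene Mthfd1l (0.963), the kinase gene Csnk1g2 (0.961) and the G protein subunit gene Gna11 (0.956). All 5 moved far less than Bgn: their K14Snail differences ranged from 0.09 (Csnk1g2) to 0.49 (Mthfd1l).

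The genes most like Aspn were the serpin Serpinb11 and the matricellular gene Ccn2 (r = 0.984 each), followed by the semaphorin Sema3e (0.977), Wfdc3 (0.977) and the bulge transcription factor Lhx2 (0.974). Unlike those of Bgn, their sort differences were large, from 4.12 (Ccn2) to 5.69 (Serpinb11) for CD34 and from 1.64 (Lhx2) to 3.60 (Serpinb11) for Mts24. These correlations are descriptions over 8 arrays.

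The rest of the family and its partners were counted from lists of known genes, beside the 2.05% (genotype), 23.7% (CD34) and 22.8% (Mts24) of all tested genes that passed. At an unadjusted p under 0.05 the share for genotype was 25.9% of all tested genes. Of the list genes named below, Gpc6, Sdc3, Chst11, Tgfb2 and Adamts5 reached 7.70 only in positive fractions, so they met the filter through the side where they are high and their differences depend on the background. Of 9 other small leucine-rich proteoglycans on the array, 2 passed the filter, Nyx (nyctalopin) and Podn (podocan), and limma called 0 in the genotype, CD34 or Mts24 contrast (1, 0 and 0 at an unadjusted p under 0.05), where the largest value was that of Podn for Mts24 (-0.33 ± 0.14, adjusted p = 0.138). Of 15 other proteoglycans tested, 1 rose in K14Snail, Hspg2, the gene of the basement membrane proteoglycan perlecan (0.64 ± 0.08, adjusted p = 0.0375; 4 of 15 unadjusted). With no pool block Hspg2 did not pass (adjusted p = 0.0614). In CD34 positive cells 9 of the 15 were higher and 4 lower (12.1% of all tested genes were higher), led by the glypican Gpc6 (3.88 ± 0.14), with Gpc3 lower (-2.79 ± 0.35), Sdc3 (2.31 ± 0.21) and Cspg4 (2.02 ± 0.22) higher. In Mts24 positive cells 8 were higher (11.1% of all tested genes were), among them Gpc6 (2.05 ± 0.14), and 1 lower, the blood cell proteoglycan Srgn (-3.50 ± 0.41).

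Of 8 tested fibrillar collagens and fibril partners, the ligands of the family's core proteins, 0 passed in the genotype contrast of limma, with 4 at an unadjusted p under 0.05. Their median difference was 0.22, against 0.02 over all tested genes, and the largest values were Col6a1 (0.54 ± 0.18, adjusted p = 0.143) and Tnxb (0.43 ± 0.17, adjusted p = 0.186). In the CD34 contrast 4 rose, Col6a2 (1.83 ± 0.15), Col6a1 (1.78 ± 0.30), Col12a1 (1.09 ± 0.12) and Col1a2 (0.95 ± 0.10), and 1 fell, Tnxb (-1.60 ± 0.29). In the Mts24 contrast 0 passed (1 unadjusted).

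Of 9 tested genes of collagen processing and crosslinking, 8 had an unadjusted genotype p under 0.05 and 1, the lysyl oxidase Loxl4 (0.81 ± 0.13), an adjusted p under 0.05. Loxl4 reached 7.70 only in the K14Snail CD34 positive and Mts24 positive arrays, so it met the filter through the side where it is high and nothing is read from its call, which was also lost with no pool block (adjusted p = 0.0766). Bmp1, the protease that removes the biglycan propeptide, had 0.65 ± 0.11 and did not pass (adjusted p = 0.0522). In both sorts 4 of the 9 were higher and 1 lower in positive cells, and the lower one was Adamts14, a procollagen protease (-2.18 ± 0.23 for CD34 and -0.97 ± 0.23 for Mts24). Among the higher ones for CD34 were the procollagen protease enhancer Pcolce2 (1.68 ± 0.40) and the collagen chaperone Serpinh1 (0.88 ± 0.11).

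Of 20 tested enzymes that build chondroitin and dermatan sulfate chains, 0 passed in the genotype contrast (7 unadjusted), with a median of 0.03 against 0.02 over all tested genes, and the largest value was that of the epimerase Dse (0.39 ± 0.15, adjusted p = 0.174). In the CD34 contrast 10 did not pass. There 8 rose, among them Xylt1, which starts the chains (1.97 ± 0.09), and the sulfotransferase Chst11 (1.86 ± 0.15), and 2 fell, the sulfotransferases Chst15 (-1.79 ± 0.20) and Ust (-1.55 ± 0.16). In the Mts24 contrast 5 rose, led by Dse (1.50 ± 0.25) and Xylt1 (1.19 ± 0.09), 1 fell and 14 did not pass. Of 7 tested keratan sulfate genes 0 passed for genotype (4 unadjusted), 2 rose and 1 fell for CD34, and 1 fell for Mts24, the fucosyltransferase Fut8 (-1.40 ± 0.08).

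Of 19 tested ligands and receptors that the family binds, 1 passed in the genotype contrast, Bmp2, which fell by 0.67 (standard error 0.11, adjusted p = 0.0474; 7 of 19 unadjusted), a call lost with no pool block (adjusted p = 0.0860). In the CD34 contrast 8 rose, among them the ligands Tgfb3 (2.80 ± 0.34) and Tgfb2 (2.23 ± 0.20) and the purinergic receptor P2rx7 (1.79 ± 0.13), and 3 fell, led by Bmp4 (-3.04 ± 0.34). In the Mts24 contrast 5 rose, among them Tgfb2 (2.06 ± 0.20) and P2rx4 (1.98 ± 0.19), and 1 fell.

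Of 8 tested proteases that can cleave the core proteins, 0 passed for genotype (5 unadjusted) or CD34 (1 unadjusted). Mmp2, a gelatinase gene, averaged 1.25 ± 0.41 more in K14Snail and did not pass (adjusted p = 0.143). By fraction the value was -0.48 in CD34 positive, 2.42 in CD34 negative, 0.89 in Mts24 positive and 2.19 in Mts24 negative cells. For Mts24 3 rose, led by Adamts5 (1.66 ± 0.29), and 1 fell, Mmp9 (-1.89 ± 0.49).

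Markers of other skin cells were read beside Bgn, Dcn and Fmod, since the family is known from dermal cells. Of 15 fibroblast markers, 10 stayed under 7.70 in all 8 arrays, among them the receptor gene Pdgfra (6.21 to 6.79) and the matrix gene Dpt (4.67 to 5.00). Other markers of the list reached that level: Fbln1, a fibulin gene, lay between 8.42 and 11.49 and Col1a1 between 7.80 and 8.78, at or above 7.70 in all 8 arrays, and Col1a2 was so in 7 arrays. The summed level of the list ranged from 11.08 to 12.20 in K14Snail and from 11.00 to 12.24 in wild type arrays (log2 of the sum of linear values). Such a sum weighs bright markers like Fbln1 most, so changes in dimmer markers hardly show in it. In CD34 positive cells the sum was 12.20 in K14Snail and 12.24 in wild type. In CD34 negative cells it was 11.08 in K14Snail and 11.00 in wild type, lower than in the CD34 positive cells of either genotype. Of the 5 fibroblast markers tested, 2 were higher in CD34 positive cells, Fbln1 (2.71 ± 0.20) and Col1a2 (0.95 ± 0.10), and 1 lower, Dpp4 (-0.69 ± 0.17), with a median of 0.55 against -0.03 over all tested genes. The median fibroblast marker differed between K14Snail and wild type by -0.05 in CD34 positive, 0.06 in CD34 negative, -0.26 in Mts24 positive and -0.10 in Mts24 negative cells. These medians rest on a list that lay mostly under 7.70. In CD34 positive cells 6 of the 15 markers were higher in K14Snail, among them Col1a1 by 0.62. Their median there was -0.05, against -0.03 over all genes. Of 16 fibrillar collagens and fibril partners on the array, 10 were higher there, with a median of 0.06. The extremes of that list were Col14a1 at 2.02 and Fn1 at -1.21, and nothing is read from either count. Col14a1 reached 7.70 only in the K14Snail CD34 positive array. For genotype 4 of the 5 fibroblast markers tested did not pass. Dpp4 (-0.68 ± 0.10) reached 7.70 only in 2 wild type arrays, both of negative fractions. It met the filter through the side where it is high in both contrasts, so nothing is read from its genotype or its CD34 call. The part of fibroblasts in the values of Bgn, Dcn, Fmod and Aspn was not tested.

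Of 10 pericyte and smooth muscle markers, 6 were under 7.70 in all arrays, and the summed level ranged from 11.31 to 12.37 in K14Snail and from 11.28 to 12.11 in wild type. Acta2, smooth muscle actin, was an exception in this list: it differed by 2.89 in CD34 positive, -0.02 in CD34 negative, 1.31 in Mts24 positive and 0.27 in Mts24 negative cells, and ranked 4th of 19938 genes in CD34 positive cells, next to Fmod. Myh11, which marks smooth muscle, and Des, the desmin gene, stayed under 7.70 in all arrays. Cspg4, also of this list, lay between 8.65 and 11.48 and reached 7.70 in all 8. Of the 4 markers tested, 2 were higher and 1 lower in CD34 positive cells, with a median of 1.15 against -0.03 over all tested genes. The part of pericytes and muscle cells in the values of Bgn, Dcn and Fmod was not tested. The genotype mean of Acta2, 1.11 ± 0.41, did not pass (adjusted p = 0.167).

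Myeloid and Langerhans cell markers were higher in the positive K14Snail fractions, though 0 of 10 tested passed the genotype test over all fractions (1 unadjusted). In CD34 positive cells 12 of 12 were higher in K14Snail, with a median difference of 1.29 against -0.03 over all genes, and in Mts24 positive cells 11 of 12, with a median of 1.25, whereas the medians were -0.53 in CD34 negative cells and -0.10 in Mts24 negative cells. Their summed level was 13.15 in K14Snail against 11.62 in wild type CD34 positive cells, and 13.35 against 11.68 in Mts24 positive cells. The part of these cells in the Bgn, Dcn and Fmod differences was not tested in any fraction.

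**Figure D5:**
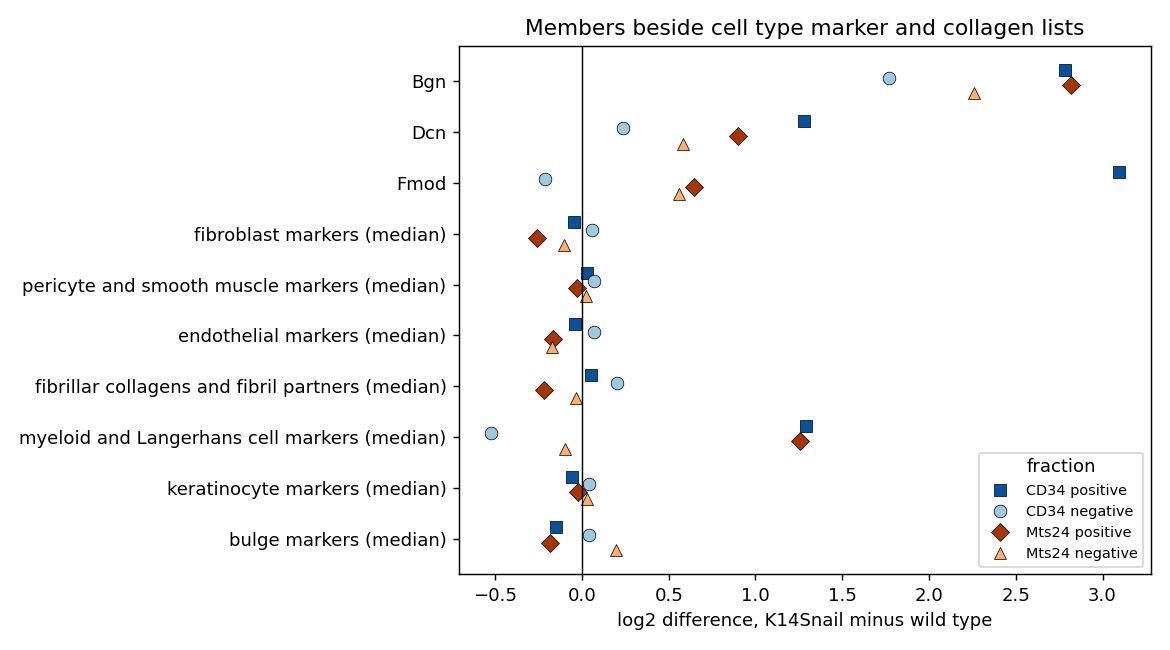
Log2 difference between K14Snail and wild type (horizontal axis) in each sorted fraction for Bgn, Dcn and Fmod and for the median gene of 7 lists. The fibroblast, endothelial and keratinocyte medians lie within 0.3 of 0 in all 4 fractions, and the myeloid medians lie at 1.29 and 1.25 in the positive fractions. In every array 10 of the 15 fibroblast markers and all 10 endothelial markers stayed under 7.70.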

How the data were processed

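The deposited values are log2 intensities of 28874 probe sets on 8 Affymetrix arrays. Per the submitters' processing notes the authors used RMA, which corrects background and normalizes between arrays; no version or genome build is named in the sources. That the values are log2 was judged from their range (3.04 to 14.49). Probe sets with 1 gene symbol in the platform annotation (21789) were kept, and for genes with several the one of highest mean was used, which left 19938 genes; 10720 passed the filter (at least 2 of 8 arrays at 7.70).

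limma 3.58.1 in R 4.3.3 fitted genotype and the 4 fractions, and treated the pool of mice as a random block (statmod 1.5.0; correlation -0.18); a further term gave the interaction. That positive and negative fractions share mice was taken from equal pool sizes, and the negative correlation does not bear it out. Genotype is compared between pools, so a negative correlation makes its standard errors smaller (Bgn 0.16, against 0.19 with no pool block). Genotype standard errors, adjusted p-values and shares of genes passed therefore rest on this choice. P-values were adjusted by Benjamini-Hochberg over all tested genes, at 0.05; ± is limma's standard error. Groups have 1 array, so p-values measure the disagreement between fractions and pools, not between animals. The number of arrays limits the precision. Scripts were tested on simulated data.

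Members, 20 gene lists and tests were chosen with earlier results of these data known. All 8 members were named, with up to 4 list genes that passed and 2 that did not per list and contrast, by size. Pdgfra, Dpt, Myh11 and Des were added as defining markers, and Col14a1 and Fn1 for their differences in CD34 positive cells. Promoters and gene order are RefSeq's (GRCm38.p6). Alternatives covered the pool block, filter, normalization, probe sets and left-out arrays and pools.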

Additional observations from a re-analysis of the deposited data

Results flagged for a closer look

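Small sign changes stood out in 2 of the flat members. For Lum the difference between K14Snail and wild type was above 0 in both positive fractions and below 0 in both negative fractions, and the change between them averaged 0.218 on the log2 scale, which is the same value as the change of the positive minus negative difference between the genotypes. For Ogn the signs ran the same way and the change was 0.197. All 8 arrays of both genes lay under 7.70. The interaction test of the fit with no filter called neither (limma adjusted p = 0.879 for Lum and 0.881 for Ogn).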

How the results depend on the processing

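Genotype calls fell when the pool block was changed and also when samples were left out: 220 genes passed, against 41 with no pool block, 28 with the correlation set at 0.1, 5 to 75 without 1 array, 1 without either CD34 pool and 0 without either Mts24 pool. The genotype difference of Bgn ranged only from 2.27 to 2.61 without 1 array. CD34 calls fell to 1422 without either Mts24 pool, and ranged from 1154 to 2280 without 1 array. Mts24 calls ranged from 661 to 2897 without 1 array. Without either Mts24 pool the Mts24 contrast rests on 1 pair, so no calls are read from those fits. The difference between the enrichments gave 232 calls with a fixed pool block, 744 without the K14Snail CD34 pool, 0 without either Mts24 pool, and 14 to 830 without 1 array. The interaction gave 4 calls at a correlation of 0.1 and 0 to 651 without 1 array; it could not be fitted without a pool.

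The Mts24 difference of Bgn no longer passed with a fixed pool block (1.21, limma adjusted p = 0.0504). It was 0.93 without the K14Snail and 1.49 without the wild type Mts24 pool, and ranged from 0.94 to 1.48 without 1 array. That of Aspn was 4.23 without the K14Snail and 2.86 without the wild type Mts24 pool. The enrichment difference of Bgn was 2.14 without the wild type CD34 pool, where 1 CD34 pair is left and no call is read. That of Aspn, 3.02, was 2.33 without the K14Snail CD34, 3.72 without the wild type CD34, 2.34 without the K14Snail Mts24 and 3.70 without the wild type Mts24 pool. The Aspn interaction, 0.01, turned to -0.049 under quantile normalization and ranged from -0.77 to 0.79 without 1 array. The causes were not tested. The labels give no replicate numbers, so the pool block is the only pairing that was fitted. Levels under 7.70 limit what can be said of 6 members.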
